A study of Mus musculus with 94 samples.

Results

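Stromal cells of the mouse periaortic adipose tissue in which many genes were found were set against stromal cells of the same tissue in which few were found. A cell was taken as stromal where its deposited values of *Dcn* and *Col3a1* reached 1000 and 100, and it was placed in the many-gene set where 3000 or more genes were above 0. Of the 85 cells with values, 58 were stromal, and 21 of these were many-gene cells and 37 few-gene cells. The cells were chosen by these measured values, so every difference below is a description of the cells chosen, with no test. In 1 few-gene cell, the one with 850 genes, the markers went against the stromal name: fibroblast markers took 0.0102% of its reads and endothelial markers 1.42%.

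The cells were PV-ADSCs, the perivascular adipose tissue-derived stromal cells of c57/bl mice at an age of 8 weeks, and they carried no transgene and received no treatment. Tissue digested with collagenase was sorted for CD144-/CD45-/CD29+/Sca1+ single cells, where CD144 and CD45 mark endothelial and blood cells, and 1 library was made per cell with SMART-seq chemistry, which copies whole transcripts. The series describes 94 cells, of which 9 without values were not analysed here. No animal is named for a cell, so each set was taken as 1 sample, and intervals given are exact Clopper-Pearson 95% intervals that cover the counting of cells only.

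Fibroblasts of the vessel wall and its adipose cover build and secrete the collagen matrix. Secreted proteins enter the endoplasmic reticulum (ER) through the translocon, are folded and glycosylated there and leave for the Golgi, while lysosomes and proteasomes break proteins down. The respiratory chain and ATP synthase of mitochondria are assembled from subunits of which most are encoded in the nucleus and the rest in mitochondrial DNA.

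Most genes were found in more of the many-gene cells, as the choice of the cells fixes. Of 8478 genes above 0 in at least 5 stromal cells, 6861 (80.9%) were found in a larger share of the many-gene cells, and the median difference was 9.78 percentage points. Each gene was therefore read against the 200 genes nearest to it in mean level. The share excess of a gene is its difference in the share of cells above 0, many-gene minus few-gene, less the median difference of those 200 genes, and the level excess is the same for the mean log2(value + 1). Beyond the number of genes, nuclear genes of the respiratory chain (median share excess, 11.6 points), of ER translocation and folding (8.40 points) and of lysosomes (8.43 points) stood higher in the many-gene cells. Mitochondrially encoded genes (-7.66 points), chemokine and NF-kappaB response genes (-8.11 points) and preadipocyte and lipid genes (-7.79 points) stood lower than genes of the same level. Without that matching, 3 of the 13 mitochondrially encoded genes were found in a larger share of many-gene cells. So were 20 of the 29 chemokine and NF-kappaB response genes and 17 of the 24 preadipocyte and lipid genes. Over all genes compared the median share excess was 0, with 48.3% of genes above 0 and 47.6% below.

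**Figure D1:**
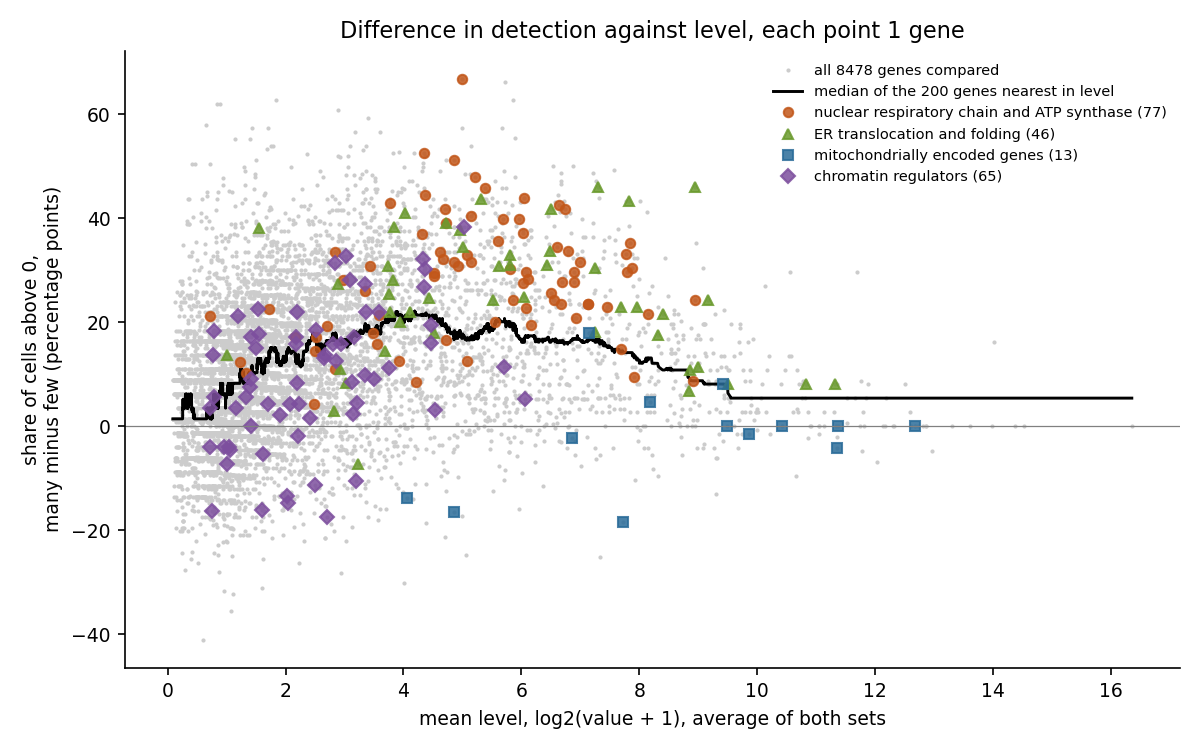
Difference in the share of cells above 0, many-gene minus few-gene cells in percentage points, against the mean level of the gene as log2(value + 1). Each grey point is 1 of the 8478 genes, the black line is the median of the 200 genes nearest in level, and colored symbols are the members of 4 lists. Of the 77 nuclear respiratory chain and ATP synthase genes 66 lie above the median of their neighbours, and of the 13 mitochondrially encoded genes 11 lie below it.

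Promoters are shown for 6 genes of the lists that stood highest, because each list has a motif known from the study of its genes. The sequences are those of RefSeq on GRCm38.p6, read 5′ to 3′ on the strand of the gene from 250 bases before to 50 bases after its start, and capitals mark the motif found.
Ndufa11: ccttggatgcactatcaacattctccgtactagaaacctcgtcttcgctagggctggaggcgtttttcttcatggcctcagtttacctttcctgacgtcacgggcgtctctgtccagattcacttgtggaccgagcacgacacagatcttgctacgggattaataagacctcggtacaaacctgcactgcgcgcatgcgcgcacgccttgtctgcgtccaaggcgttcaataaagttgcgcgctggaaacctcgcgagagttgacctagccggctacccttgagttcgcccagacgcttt
Ndufa6: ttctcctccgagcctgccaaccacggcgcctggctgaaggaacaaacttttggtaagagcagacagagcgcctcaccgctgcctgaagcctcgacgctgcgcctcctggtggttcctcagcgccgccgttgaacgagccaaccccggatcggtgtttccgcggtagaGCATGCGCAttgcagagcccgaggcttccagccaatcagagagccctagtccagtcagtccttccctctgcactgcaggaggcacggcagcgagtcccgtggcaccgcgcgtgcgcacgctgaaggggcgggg
Hspa5: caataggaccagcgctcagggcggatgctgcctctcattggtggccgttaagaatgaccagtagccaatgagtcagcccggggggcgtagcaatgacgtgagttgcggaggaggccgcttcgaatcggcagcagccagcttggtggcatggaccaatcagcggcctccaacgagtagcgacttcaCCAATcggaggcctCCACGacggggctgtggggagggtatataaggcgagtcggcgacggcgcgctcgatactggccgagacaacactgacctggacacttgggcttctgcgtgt
Dnajc3: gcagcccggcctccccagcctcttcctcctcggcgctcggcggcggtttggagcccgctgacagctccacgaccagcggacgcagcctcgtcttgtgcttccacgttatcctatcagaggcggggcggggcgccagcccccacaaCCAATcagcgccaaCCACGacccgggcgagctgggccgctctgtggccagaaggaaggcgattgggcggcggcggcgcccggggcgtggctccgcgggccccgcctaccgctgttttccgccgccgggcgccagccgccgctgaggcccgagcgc
Atp6v0d1: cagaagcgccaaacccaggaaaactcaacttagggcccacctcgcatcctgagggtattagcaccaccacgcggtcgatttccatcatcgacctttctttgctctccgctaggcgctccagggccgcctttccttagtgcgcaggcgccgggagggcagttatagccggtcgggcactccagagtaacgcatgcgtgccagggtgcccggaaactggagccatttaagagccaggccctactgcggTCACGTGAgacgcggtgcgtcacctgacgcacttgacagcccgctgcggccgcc
Atp6v0e: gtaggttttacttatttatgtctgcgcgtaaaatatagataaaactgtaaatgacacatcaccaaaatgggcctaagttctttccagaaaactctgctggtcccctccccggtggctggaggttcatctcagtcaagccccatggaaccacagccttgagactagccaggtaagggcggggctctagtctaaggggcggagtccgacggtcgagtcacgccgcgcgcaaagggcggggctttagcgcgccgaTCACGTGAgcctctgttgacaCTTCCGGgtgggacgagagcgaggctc
*Ndufa11*, a subunit of complex I, lies at chr17:56717512-56717811 (+ strand), and *Ndufa6* at chr15:82354242-82354541 (- strand). *Hspa5*, the main Hsp70 chaperone of the ER, lies at chr2:34771840-34772139 (+ strand), and *Dnajc3*, a co-chaperone of the same protein, at chr14:118937682-118937981 (+ strand). *Atp6v0d1* and *Atp6v0e*, subunits of the proton pump that acidifies lysosomes, lie at chr8:105566015-105566314 (- strand) and chr17:26676146-26676445 (+ strand).

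The letters searched, on both strands, were TGACGTGG (the core of the UPRE, an element of the unfolded protein response), TGCGCATGC (the core of the site of NRF1, a regulator of nuclear genes for mitochondria), TCACGTGA (the CLEAR element of lysosomal genes), CCGGAAG (an ETS site) and CCAAT followed after 9 bases by CCACG (the ER stress element). The NRF1 core stood in the *Ndufa6* promoter and in 5 of 64 promoters of the respiratory chain list (7.81%). Of 27025 promoters 1.59% had it, and of the 5369 found for the genes compared 3.63%, while the lysosome and ER lists had it in 6.25% and 5.41%. None of the letters searched stood in the *Ndufa11* promoter. That promoter holds CGCGCATGC, which differs from the letters of the NRF1 core in the first base only and was not searched. The ER stress element stood in 7 of 37 promoters of the ER list (18.9%), against 0.130% of all promoters and 0.186% of those of the genes compared. The 7 were those of *Hspa5*, *Hsp90b1*, *Calr*, *Canx*, *Pdia6*, *Dnajc3* and *Creld2*. The share excess was 2.70 points for each of *Hspa5*, *Hsp90b1* and *Calr* and 2.06 for *Canx*. It was 16.2 points for *Pdia6*, 29.1 for *Dnajc3* and 10.4 for *Creld2*. The letters TGACGTGG of the UPRE core stood in 0 of 37 promoters of the ER list, against 1.08% of those of the genes compared. They stood in 0 of the promoters of the respiratory chain and lysosome lists. The *Hspa5* promoter holds TGACGTGA, which differs from them in the last base only and was not searched. The CLEAR element stood in 4 of 32 promoters of the lysosome list (12.5%), namely *Ctsd*, *Atp6v0d1*, *Atp6v0e* and *Atp6v1a*, against 1.01% of all and 2.38% of those of the genes compared. In *Atp6v0e* the capitals also mark an ETS site. This site stood in 18.8% of the lysosome list, 23.4% of the respiratory chain list and 29.7% of the ER list. The ribosomal protein list had it in 38.3% and the proteasome list in 36.1%, against 19.2% of the genes compared. A match describes the letters only. Each site was searched in the spelling given, and other forms of it were not searched, so a site called absent may stand in another form.

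The sets overlapped in read number. The many-gene cells held 3007 to 4148 genes (median, 3544) and the few-gene cells 850 to 2980 (median, 2605), with 3007, 3076 and 3121 genes in the cells just above the limit and 2980, 2971 and 2963 just below. The lowest value of *Dcn* among the 58 cells was 6521 and the highest outside them 269, and for *Col3a1* these were 567 and 87.2. The whole reads recovered from the deposited values ranged from 2257023 to 4776510 per many-gene cell (median, 3146958). Per few-gene cell they ranged from 1146945 to 4164295 (median, 2738707). Of the 37 few-gene cells 12 held more reads than the median many-gene cell, and 9 held fewer than the lowest many-gene cell. Of the 21 many-gene cells 18 held more reads than the median few-gene cell. Over the 58 cells, which share the depth of their own library in both measures, the Spearman correlation of genes with reads was 0.24, and that with the percentage of reads in the 50 highest genes was -0.55. Those 50 genes took 23.5% to 35.2% of the reads of many-gene cells (median, 27.4%) and 23.6% to 68.03% in few-gene cells (median, 31.4%). The median many-gene cell held 2248 genes at 100 or more reads and the median few-gene cell 1600, and at 1 to 9 reads these were 643 and 523 genes.

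**Figure D2:**
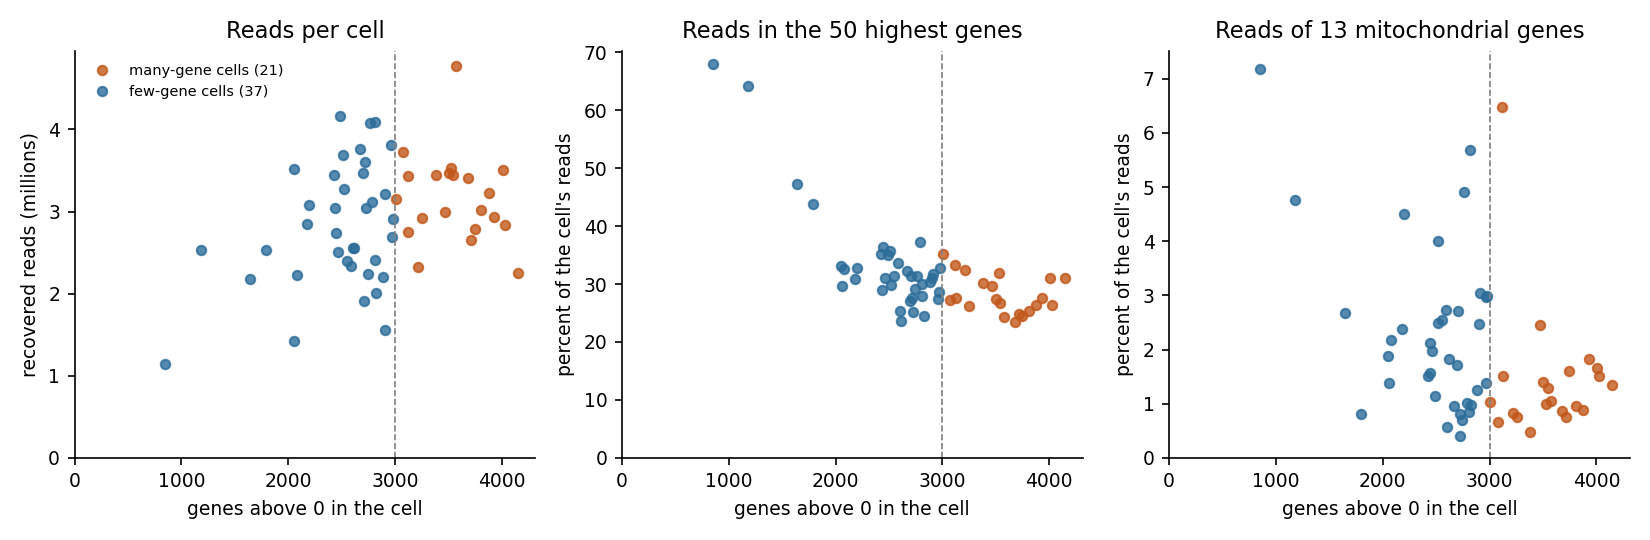
Recovered reads, percentage of reads in the 50 highest genes and percentage of reads of the 13 mitochondrially encoded genes, each against the number of genes above 0 in the cell. Points are cells, orange for the 21 many-gene and blue for the 37 few-gene cells, and the dashed line stands at 3000 genes; the sets overlap in all 3 measures, and 3 few-gene cells lie below 1700 genes.

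The fibroblast markers were found in both sets. Each of the 15 fibroblast markers was found in each set, and at least 3 of them reached 100 reads in 21 of 21 many-gene and 36 of 37 few-gene cells. The exception was the cell with 850 genes, which held 69 reads of *Dcn* and 6 of *Col3a1* and met the rule through the scaling of the deposited values. Without the 3 cells below 1700 genes, of which it is one, the median share excess was 11.2 points in the respiratory chain list, 8.47 in the ER list, 9.17 in the lysosome list and -4.76 in the mitochondrially encoded genes. *Dcn*, a collagen-binding proteoglycan, had 35578 to 254762 reads in many-gene cells (median, 121411) and 69 to 282890 in few-gene cells (median, 74484), and the mean deposited level was 16.31 and 16.40 on the log2(value + 1) scale. Of the sort markers, *Ly6a* (Sca1) was above 0 in 20 of 21 and 32 of 37 cells and *Itgb1* (CD29) in 15 and 20. *Ptprc* (CD45) was not analysed here. *Cdh5* (CD144) was above 0 in 5 many-gene and 2 few-gene cells and did not exceed 57 reads in any of them. The median share excess of the 9 endothelial markers compared was 6.82 points, and 1 many-gene cell but no few-gene cell held 3 or more of the 15 endothelial markers at 100 reads. Summed over the 15 endothelial markers, the level was 0 to 2420 CPM (recovered reads scaled to a common total) in many-gene cells (median, 11.6) and 0 to 14184 in few-gene cells (median, 3.34), the highest being that of the cell with 850 genes, with *Tie1* and *Erg* at 0 in both sets. Without the 1 many-gene cell that held 3 or more of them at 100 reads, the median share excess of the respiratory chain list was 10.6 points, that of the ER list 10.2 and that of the lysosome list 8.01. At least 3 mesothelial markers reached 100 reads in 1 cell of each set and at least 3 red cell markers in 1 many-gene cell. No cell did so for mural, immune, adipocyte or nerve markers, but for several lists this was fixed beforehand. Only 2 adipocyte markers had values. Few-gene cells held only 2 mural, 2 nerve and 2 red cell markers, and many-gene cells only 2 immune markers. At least 1 mural marker reached 100 reads in 5 many-gene and 8 few-gene cells. For immune markers these were 3 and 7 cells, for nerve markers 5 and 5 and for adipocyte markers 2 and 0. The adipocyte gene *Adipoq* was above 0 in 1 many-gene cell, the pericyte gene *Abcc9* in 2 many-gene and 8 few-gene cells, and the monocyte gene *Cd14* in 2 and 3.

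With a size threshold of 25 points, 246 genes (2.9% of 8478) had excess detection in the many-gene cells and 184 (2.17%) in the few-gene cells. Gene types differed between both groups. Protein-coding genes made up 126 of the 246 (51.2%) and 150 of the 184 (81.5%), against 79.1% of all genes compared, and pseudogenes made up 36.2% and 11.96%, against 14%. Among coding genes the median transcript length in GENCODE vM21 was 1063 bases in the first group and 2522 in the second, against 2066 over all. In 3 equal classes of length, the shortest coding genes had a median share excess of 2.51 points and the longest -2.06 points. With genes matched also within these classes, the median of the ER list was 8.75 points, of the lysosome list 9.43, of the mitochondrially encoded genes -10.2, of ribosomal protein genes -3.02 and of extracellular matrix genes -4.76. Of the 15 *Hist1h2* genes compared, 11 passed the threshold on the many-gene side and none on the few-gene side. These histone genes gave the largest share excess at very few reads. *Hist1h2bn* was above 0 in 17 of 21 many-gene cells (80.95%; interval, 58.1% to 94.6%) and 7 of 37 few-gene cells (18.9%; 7.96% to 35.2%), with at most 9 reads in a cell. Reads of such near-identical gene copies, and of processed pseudogenes such as *Gm8849*, could have been split between copies by the counting, and their values are uncertain.

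The nuclear genes of the respiratory chain and ATP synthase had the highest median share excess among the lists. Each of the 77 genes was found in a larger share of many-gene cells, 66 of them had a share excess above 0, 9 below and 2 at 0. On the side of the many-gene cells 8 (against 2.9% of all genes) passed 25 points, and none did on the other side. The median share of cells above 0 was 76.2% in many-gene and 43.2% in few-gene cells. The median level excess was 0.96 on the log2(value + 1) scale and 0.75 on the log2 scale of CPM. The list took about the same part of the reads in both sets, with medians of 1.51% and 1.39% of a cell's reads. Matched within the classes of transcript length, the median share excess was 10.8 points.

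By complex, the median share excess was 13.8 points in the 37 genes of complex I, the NADH dehydrogenase that feeds electrons into the chain, with 34 genes above 0. It was 12.5 points in the 9 genes of complex III, 10.9 in the 15 of ATP synthase and 8.11 in the 11 of complex IV, which hands electrons to oxygen. The 4 genes of complex II, the succinate dehydrogenase, had a median of 4.47 points with 2 above 0 and 2 below. *Ndufa11*, whose promoter is shown above, was above 0 in 18 of 21 many-gene cells (85.7%; interval, 63.7% to 97.0%) and 7 of 37 few-gene cells (18.9%; 7.96% to 35.2%). Its reads ranged from 0 to 2231 in many-gene cells (median, 676) and from 0 to 2029 in few-gene cells (median, 0). Most few-gene cells had no read of it, while each of the 7 that had it held 100 or more, so the sets overlap. Genes of the same level differed by 17.1 points, which left a share excess of 49.7 points. *Ndufa6*, another accessory subunit of complex I, was found in 17 of 21 and 11 of 37 cells (share excess, 34.5 points), and *Atp5c1*, the central shaft subunit of ATP synthase, in 15 and 7 (31.1 points). The lowest members were *Ndufb5* (12 of 21 and 18 of 37 cells; -12.999 points) and *Sdha*, the catalytic subunit of complex II (6 and 9 cells; -12.9 points). *Nme1*, a nucleoside diphosphate kinase outside the lists, was found in 19 of 21 and 9 of 37 cells (46.1 points).

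**Figure D3:**
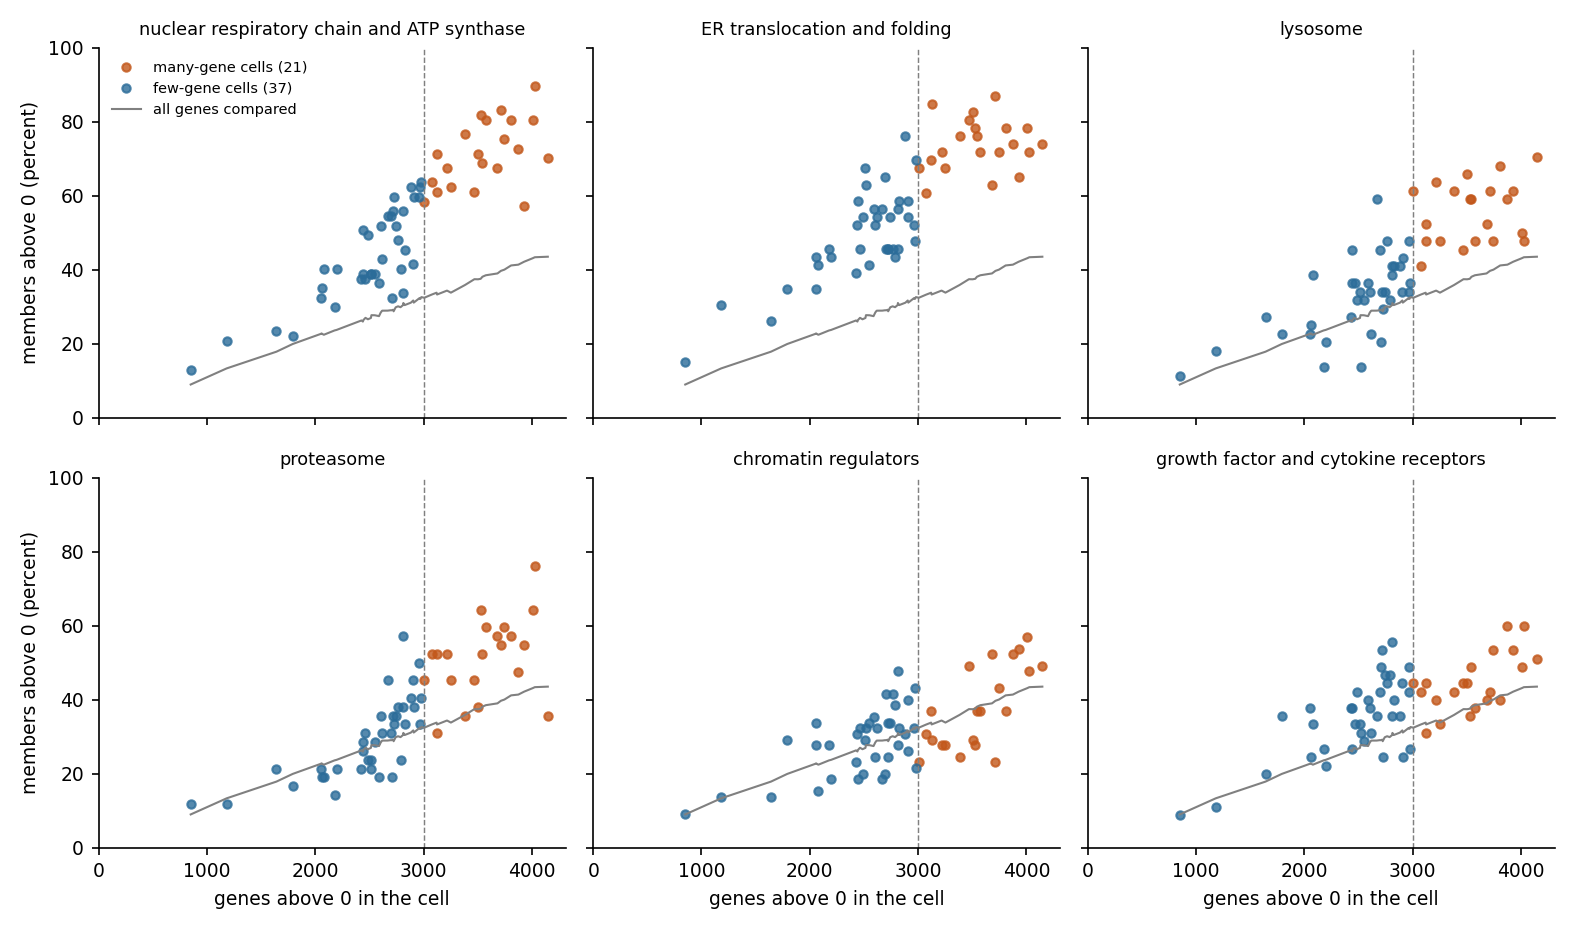
Percentage of the members of 6 lists that were above 0 in each cell against the number of genes above 0 in the cell. Orange and blue points are the 21 many-gene and 37 few-gene cells. The grey line is the percentage over all 8478 genes compared, and the dashed line stands at 3000 genes. In 15 of the 21 many-gene cells the nuclear respiratory chain list lies above its highest value in a few-gene cell, 63.6%. Over all genes compared 20 of the 21 do so, which comes with the choice of the cells.

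Cell by cell, 57.1% to 89.6% of the respiratory chain list was above 0 in many-gene cells (median, 71.4%) and 12.99% to 63.6% in few-gene cells (median, 40.3%). In 15 of 21 many-gene cells the percentage was above the highest few-gene cell. Over all genes compared the medians were 38.1% and 28.5%, and 20 of 21 many-gene cells were above the highest few-gene cell. Such a separation comes with the choice of the cells and is not particular to the list. Within each set the percentage also went with the number of genes, with a Spearman correlation of 0.76 over the 37 few-gene cells and 0.49 over the 21 many-gene cells. The ER list had 0.61 and 0.16 in these sets and the lysosome list 0.58 and 0.22. Ribosomal protein genes, with a median share excess below 0, had 0.70 and 0.69. Both measures share the genes found in the cell, and the correlations are a description. The 21 cells with the most genes outside all lists were the same 21 cells.

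The 13 mitochondrially encoded genes, which supply the remaining subunits of the same complexes, did not follow the nuclear ones. Of the 13, 1 had a share excess above 0, 11 below and 1 at 0, and 3 passed -25 points (against 2.17% of all genes). In 4 of the 13 the share could not differ because the gene was above 0 in every cell, and the median of the other 9 was -9.52 points. The median level difference of the list was -0.29, and the median level excess was -1.31. Of the 222 genes found in at least 90% of both sets, 30 had a level excess above 0, so a level excess below 0 is usual for genes found in nearly every cell. *mt-Atp6*, a subunit of ATP synthase, was above 0 in every cell, with 12 to 28739 reads in many-gene cells (median, 1226) and 8 to 42264 in few-gene cells (median, 7816). Its level was 10.47 ± 2.62 (SD over 21 cells) in many-gene cells and 12.27 ± 2.19 (37 cells) in few-gene cells, a difference within the spread of either set, and its level excess was -2.69. The complex I subunits *mt-Nd3* (13 of 21 and 29 of 37 cells), *mt-Nd4l* (13 and 28) and *mt-Nd6* (16 and 35) had share excesses of -34.2, -35.1 and -32.9 points. *mt-Co1* went the other way in level (excess, 1.37) and was found in 14 of 21 and 18 of 37 cells. Mitochondrial genes took 0.469% to 6.47% of the reads of many-gene cells (median, 1.05%) and 0.408% to 7.18% in few-gene cells (median, 1.97%), and 28 of the 37 few-gene cells were above the many-gene median. The part of this share in the other differences was not tested.

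The secretory entry route stood higher as well. Of 46 genes of ER translocation and folding 38 had a share excess above 0 and 8 below, with 6 past 25 points and 1 past -25 (against 2.9% and 2.17% of all genes), and the median level excess was 0.82. The 21 genes of the signal recognition particle, translocon and signal peptidase had a median of 10.8 points, the 18 ER chaperones 7.40 and the 7 oligosaccharyltransferase subunits 6.05. *Pdia3*, a disulfide isomerase of glycoprotein folding, was above 0 in 21 of 21 many-gene cells (interval, 83.9% to 100%) and 20 of 37 few-gene cells (54.1%; 36.9% to 70.5%). Its reads ranged from 1169 to 22187 in the former (median, 6144) and from 0 to 14936 in the latter (median, 27). Every many-gene cell thus held the gene well above single reads, while 17 few-gene cells had none. *Rpn2*, a subunit that attaches glycans (21 of 21 and 20 of 37 cells; 29.5 points), and *Dnajc3* (21 and 21 cells; 29.1 points) were alike. *Hspa5* was found in 21 of 21 and 34 of 37 cells, where shares can hardly differ, but its level was 11.95 ± 2.19 (SD over 21 cells) and 9.70 ± 4.08 (37 cells), with a level excess of 1.38. *Sec61a1*, the channel of the translocon, was the lowest, with 7 of 21 and 15 of 37 cells (-25.1 points). The next step, ER to Golgi transport, had a median of 2.06 points, with 26 of 49 genes above 0. In it *Sec13*, a coat protein of vesicles that leave the ER, was found in 12 of 21 and 2 of 37 cells (35.8 points).

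Lysosomal genes were found more often in many-gene cells than genes of the same level. Of 44 genes 33 had a share excess above 0, 10 below and 1 at 0, with 2 past 25 points, a share near the 2.9% of all genes, and none past -25, and the median level excess was 0.98. The 14 subunits of the vacuolar ATPase had a median of 11.8 points and the 30 enzymes and membrane proteins 6.44. *Atp6v0d1* was above 0 in 14 of 21 many-gene cells (66.7%; interval, 43.03% to 85.4%) and 5 of 37 few-gene cells (13.5%; 4.54% to 28.8%), with 0 to 1439 reads (median, 87) and 0 to 3183 reads (median, 0). The 5 few-gene cells that had it held 846 to 3183 reads, while the 14 many-gene cells that had it held 5 to 1439. *Atp6ap2*, an accessory protein of the pump, was found in 14 and 7 cells (29.9 points), and *Atp6v0e* in 17 and 15 (24.3 points). *Scarb2* (7 and 13 cells; -18.1 points) and *Gm2a* (7 and 12; -15.3 points) were lowest. Lysosomal genes took 0.897% to 2.38% of the reads of many-gene cells (median, 1.38%) and 0.132% to 1.9996% in few-gene cells (median, 0.881%).

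Protein breakdown by the proteasome was divided by its parts. The 17 genes of the core particle, which cuts proteins, had a median share excess of 15.6 points with 13 above 0, while the 19 of the regulatory particle, which unfolds them, had -2.06 points with 7 above 0. *Psme2*, an interferon-inducible activator of the core, was above 0 in 20 of 21 many-gene cells (95.2%; interval, 76.2% to 99.9%) and 12 of 37 few-gene cells (32.4%; 18.01% to 49.8%), a share excess of 44.02 points. Its reads ranged from 0 to 3259 (median, 523) and from 0 to 2116 (median, 0). *Psmb6* (18 and 14 cells) and *Psma1* (16 and 12), both of the core, had share excesses of 29.1 and 24.6 points, and *Psmc1* of the regulatory particle (7 and 13) had -19.5. *Psme2* and *Pdia3* are also members of the list for MHC class I presentation, whose median was 5.41 points over 21 genes and 2.70 matched within the classes of length, with *Tapbp*, which loads peptides, in 15 and 11 cells (21.8 points). In RNA processing, the 10 snRNP proteins had a median of 15.2 points with 8 above 0 (*Snrpc*, 16 and 10 cells). The 7 SR proteins had -2.06, and all 68 genes of the splicing list 0.225. Median transcript lengths were 1108 bases for the snRNP and 2021 for the SR proteins.

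**Figure D4:**
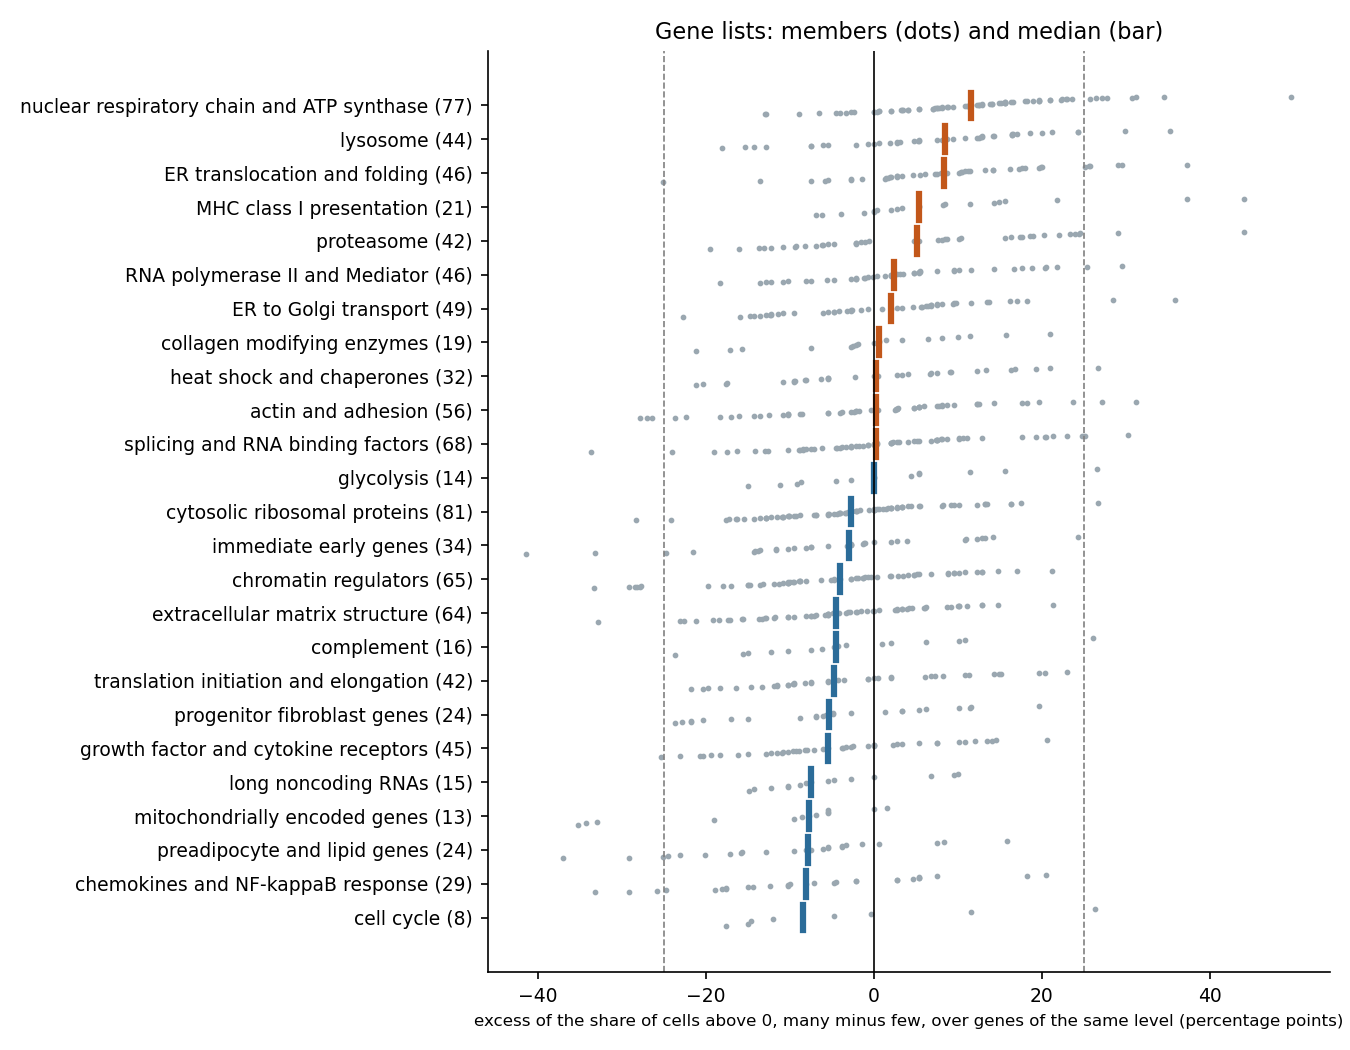
Share excess of the members of 25 gene lists in percentage points, with the number of members compared in parentheses. Dots are genes, bars are medians and dashed lines stand at 25 and -25; the nuclear respiratory chain list has the highest median, 11.6 points, and each list spans 0.

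Other lists stood near the background or below it. Glycolysis (14 genes), heat shock genes (32), actin and adhesion (56) and collagen modifying enzymes (19) had medians of 0, 0.257, 0.257 and 0.644 points. Single members lay far from these, among them *Tpm4*, an actin-binding tropomyosin (19 of 21 and 16 of 37 cells; 31.1 points), and *Cfl1*, an actin-severing protein (21 and 21; 27.2 points). The 81 cytosolic ribosomal protein genes were found in a median of 95.2% of many-gene and 83.8% of few-gene cells, close to the upper bound. Their median share excess was -2.70 points, their median level difference 0.62 and their level excess -0.72, which is shifted downwards as for the mitochondrially encoded genes. The 64 extracellular matrix genes had a median of -4.44 points with 22 above 0, although they took 10.6% of the reads of the median many-gene cell and 8.86% of the median few-gene cell. Collagen chains (16 genes) had 0.290 points and the other 48 matrix genes -5.41. *Tnxb*, a matrix glycoprotein, was found in 9 of 21 and 20 of 37 cells (-32.8 points).

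Lists of signalling, inflammation, lipid and chromatin genes stood below genes of the same level, although most members were found in a larger share of many-gene cells. Such were 20 of 29 chemokine and NF-kappaB response genes and 17 of 24 preadipocyte and lipid genes. So were 51 of 65 chromatin regulators and 36 of 45 receptors, against 80.9% of all genes. Of 29 chemokine and NF-kappaB response genes 20 had a share excess below 0, with 3 past -25 points (against 2.17% of all genes), while in level 13 of the 29 were above 0. *Cxcl1*, a neutrophil-attracting chemokine, was above 0 in 12 of 21 many-gene cells (57.1%; interval, 34.02% to 78.2%) and 27 of 37 few-gene cells (72.97%; 55.9% to 86.2%), a share excess of -33.2 points. Its reads were 23487, 23701, 26381 and 31354 in the highest many-gene cells and 12490 in the highest few-gene cell, but the medians were 4 and 791. The list took 0.382% of the reads of the median many-gene cell and 0.659% of the median few-gene cell. The means were 1.08% and 0.897%, and 3 many-gene cells were above the highest few-gene cell. *Nfkb1*, the precursor of the p50 subunit of NF-kappaB, was found in 5 of 21 and 15 of 37 cells (-29.1 points). Of 24 preadipocyte and lipid genes 20 were below 0, among them *Fmo2* (5 and 16 cells; -36.9 points), *Mgll*, a monoglyceride lipase (7 and 17; -29.1), and *Clec11a* (2 and 9; -25.1). *Fasn*, the fatty acid synthase, went the other way, with 5 of 21 cells and 0 of 37. Taking 0 cells as up to 3, which is not the exact interval, allows a share of up to 8.11%. Of 65 chromatin regulators 42 were below 0 (47.6% of all genes were) and 6 passed -25 points (2.17% of all genes), *Setd5* (6 and 17 cells; -33.3), *Ezh1*, a histone H3 methyltransferase (6 and 16; -29.1), and *Smc3*, a cohesin subunit (8 and 18; -28.4), being lowest. The 45 growth factor and cytokine receptors had a median of -5.41 points, with *Igf1r* (8 and 17 cells; -25.4) and *Pdgfrb* (6 and 13; -23.0) lowest. These lists hold long genes, with median transcript lengths of 4211 bases for chromatin regulators and 3663 for receptors. Matched within the classes of length, their medians were -3.35 and -4.44 points.

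The immediate early genes, which respond to stress and tissue digestion, were split. *Fos* was found in 21 of 21 many-gene and 26 of 37 few-gene cells (24.3 points), while *Ier5* (9 and 25 cells; -41.4 points) and *Myc* (7 and 18; -33.2) lay among the lowest genes of all lists. The median of the 34 genes was -2.99 points and, matched within the classes of length, -8.43, and the list took 2.21% and 2.30% of the reads of the median cell. The progenitor fibroblast genes had -5.31 points, with *Uchl1* highest (11 and 6 cells; 19.7) and *Efhd1* lowest (6 and 14; -23.7). Of 42 cell cycle genes 8 were found in at least 5 cells, with a median of -8.40 points. The medians of the remaining lists were 2.38 points for 46 genes of RNA polymerase II and Mediator, -4.76 for 42 translation factors, -4.54 for 16 complement genes and -7.46 for 15 long noncoding RNAs.

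The genes with the largest excess in few-gene cells were mostly not in a list. *Ddx6*, an RNA helicase of mRNA decay, was above 0 in 9 of 21 many-gene cells (42.9%; interval, 21.8% to 65.98%) and 27 of 37 few-gene cells (72.97%; 55.9% to 86.2%). Its reads ranged from 0 to 1088 (median, 0) and from 0 to 3408 (median, 41), and the share excess was -50.8 points. *Nadk*, the NAD kinase (6 and 21 cells; -44.1), and *Lpgat1*, a lipid acyltransferase (2 and 15; -42.7), came next. *Gas1*, a membrane protein named for growth arrest, was found in 14 of 21 and 34 of 37 cells (-41.0 points), with medians of 566 and 1767 reads. *Rab11a*, a GTPase of recycling endosomes, was found in 8 and 21 cells (-40.2 points). The 10 lowest also held *Ier5* and the genes *Gm42845*, *Gm9354*, *Gm28438* and *Gm14633*, at -42.5 to -40.5 points. Among the 222 genes above 0 in at least 90% of both sets, 30 had a level excess above 0, against 49.8% of all genes, so this excess is shifted downwards for such genes and only its order among them is given. The highest were *Cd63*, a tetraspanin of late endosomes (1.83), *Myl6*, a myosin light chain (1.58), the histone gene *H3f3b* (1.498), *Chchd2*, a mitochondrial protein (1.46), and *Hspa5* (1.38). The lowest were *Mir703* (-2.83), *Gm13341* (-2.78), *mt-Atp6*, *AY036118* (-2.42) and *Gm26384* (-2.39), of which *Gm13341* is a pseudogene.

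**Figure D5:**
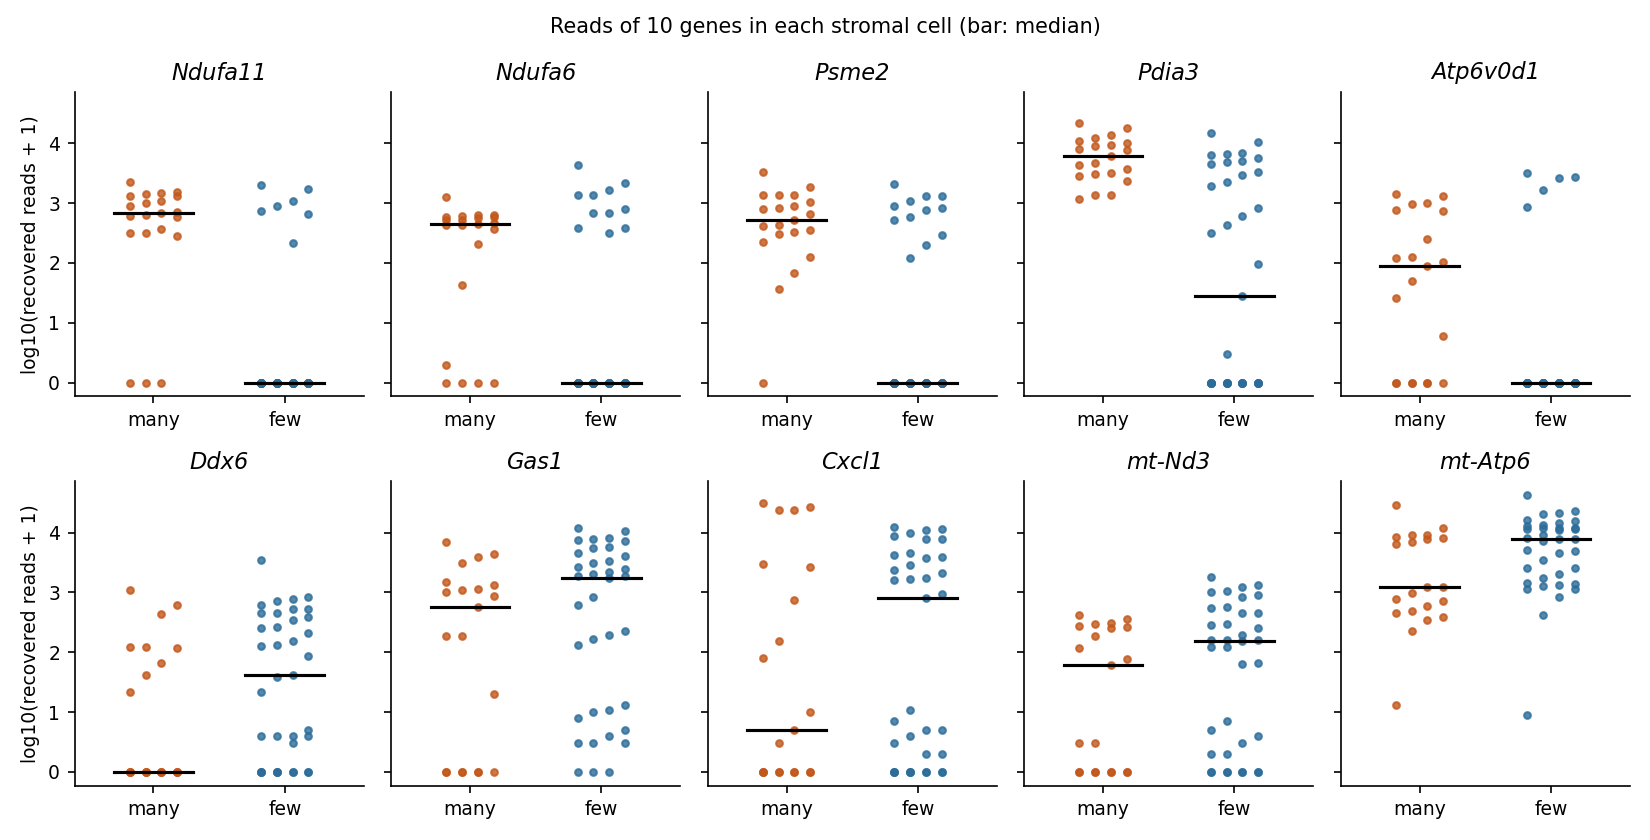
Recovered reads of 10 genes in each stromal cell as log10(reads + 1), with many-gene cells (21, orange) and few-gene cells (37, blue) side by side and the median as a bar. *Ndufa11*, *Ndufa6*, *Psme2*, *Pdia3* and *Atp6v0d1* have higher medians in many-gene cells and *Ddx6*, *Gas1*, *Cxcl1*, *mt-Nd3* and *mt-Atp6* in few-gene cells, and the sets overlap in all 10.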

How the data were processed

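Read quality was assessed by the authors with FastQC. Alignment was to the mouse build mm9 by HISAT2 2.0.5, and SAMtools 1.4 and StringTie 1.3.3 followed (versions from the submitters' processing notes). The authors kept cells with over 800000 aligned reads and applied the default scaling of scater. The counting program is not given in the sources used here. The deposited values are a signal of scaled read counts for 16069 genes in 85 cells.

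The values of 5404 genes, in 13 groups, were multiples of a factor of the group and cell, between 0.0157 and 94.5. Each factor was found as the step of which the values are whole multiples, and dividing by it gave whole reads, within the rounding of the deposited decimals, for all 144272 values above 0 of these genes. The values of the other 10665 genes were whole as deposited and were taken as reads. The scripts were tested on simulated data. Reads named in the text are these, and they carry no molecular identifiers and are not independent molecules. Levels are log2(value + 1) of the deposited values.

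Members and lists were chosen with earlier results of these data known. Genes above 0 in at least 5 of 58 stromal cells were compared, each with the 200 genes nearest in the average of both sets' mean levels. Genes named are the 10 with the largest and the 10 with the smallest share excess whose level excess has the same sign, among genes in at least 10 cells; in each list up to 3 on either side past 10 points; the 5 highest and lowest in level excess among genes in at least 90% of both sets; the genes of the rule and of the sort; and the most detected markers. The same 10 on either side among coding genes, all 13 mitochondrially encoded genes and the members named for a motif were added after their values were seen. Shares carry 95% intervals, and 0 cells allow up to 3 cells of the set. Lengths are medians over the transcripts of a gene in GENCODE vM21, found for 97.6% of the genes compared. GENCODE and RefSeq are on another build than mm9 and gave lengths, gene types and promoters only. Doublets were not called. The sort was for 1 cell per library, and whether a library held RNA of more than 1 cell was not tested. Of the marker genes, *Ptprc*, *Plin1*, *Acta2*, *Tagln*, *Cnn1* and *Myh11* were not used here. Python 3.11.15, numpy 2.4.6, pandas 2.3.3, scipy 1.17.1 and matplotlib 3.10.9 were used. Alternatives were other limits, depths, detection levels, matching and cell sets.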

Additional observations from a re-analysis of the deposited data

How the results depend on the processing

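Under 17 alternatives, the median share excess of the nuclear respiratory chain list stayed between 8.32 and 11.8 points, that of the ER list between 5.41 and 11.1, that of the lysosome list between 4.05 and 11.4 and that of the mitochondrially encoded genes between -11.6 and -4.76. The 246 genes with excess detection in many-gene cells became 136 where a gene counted as found at 10 or more recovered reads, and 106 over protein-coding genes only. The 184 on the few-gene side became 297 with genes matched on the share of cells and 323 in cells of 2500000 to 3600000 reads. The other counts ran within 1.5 times of these. The cell cycle list turned from -8.40 to 7.79 points where genes had to be above 0 in 10 cells, which left 4 of its 8 genes. Of these alternatives, matching within classes of length or on CPM, leaving out 3 cells with fewer than 1700 genes, the window of reads and protein-coding genes only were chosen after seeing the data. No paired analysis was possible because no animal is named for a cell and no result comes from a test. Genes close to 0 or to all cells leave the share little room to differ.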
